A study of Mus musculus with 27 samples.

Results

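The genes described here carry out or control the breakdown of fatty acids in mitochondria and peroxisomes. They came from a list of 31 genes chosen by function, not by any measured value. Of these, 30 were measured, each by 1 probe set that matched a single gene symbol and had the highest mean over 27 arrays, among 18193 genes read in this way. Acsl1, a fatty acid activating enzyme on the list, was not analysed here. The list was named for ketone body synthesis as well, but no enzyme of that pathway is among the 31 genes, so the set is called the fatty acid oxidation genes.

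Expression was measured in the colon of mice, taken through its full thickness, so that epithelium, muscle and immune cells contributed to each sample. The arrays form 9 groups of 3. The first kind of mouse lacked Il10, which encodes an inflammation-restraining cytokine, and was kept in conventional housing. The second kind lacked Il10 and was kept in specific pathogen free (SPF) housing, and the third was wild type in conventional housing. Each kind was sampled at 7, 9 and 12 weeks of age. The code of the conventional knockouts in the labels was read by elimination. The authors picked the replicates of a group by the length and damage of the colon and not at random. Nothing in the labels says if tissue of several animals was pooled. No SPF wild types were analysed here, so SPF knockouts differed from wild types in genotype and housing together.

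Fatty acids enter oxidation after an acyl-CoA synthetase joins them to coenzyme A. The carnitine shuttle carries long chains into mitochondria, where dehydrogenases, hydratases and thiolases shorten them in repeated rounds and pass electrons on through the electron transfer flavoprotein. Peroxisomes shorten chains that are too long or too branched for mitochondria. In the colon, surface epithelial cells are known to meet much of their energy need by oxidising butyrate, a short fatty acid made by gut bacteria, with part of the same enzymes. The nuclear receptor PPAR alpha and the coactivator encoded by Ppargc1a are known to raise the expression of many of these genes.

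Values are log2 expression as the authors normalised it, and each difference is that of 2 group means on this scale, given ± its SE with 3 arrays a group, from a single limma fit over the 27 arrays. A gene was called where its Benjamini-Hochberg adjusted p over all 18193 genes was under 0.05. These p-values measure only the spread between samples of a group, which may be technical. The fit takes 1 spread per gene, shared by all 9 groups, although the groups were not equally even. The median within-group SD of the fatty acid oxidation genes ran from 0.07 in 9-week wild types to 0.34 in 12-week SPF knockouts. An SE can thus be too small where 12-week SPF knockouts enter and too large between more even groups. Array medians lay between 4.92 and 4.99. The mean of 8 epithelial markers, among them Epcam and Cdh1, lay between 11.73 and 12.22 on all arrays, so markers of the gut lining were high throughout. The Il10 probe set read at least 4.66 on every knockout array and at most 3.83 on every wild-type array. Which part of the gene was deleted is not stated, so the probe set cannot check the genotype. At 12 weeks markers of inflammatory cells were high in the group labelled SPF. There the mean of 9 neutrophil and macrophage markers lay between 6.15 and 8.48 in SPF knockouts, between 5.17 and 5.28 in conventional knockouts and between 4.91 and 4.98 in wild types. At 9 weeks it lay between 5.10 and 6.79 in SPF knockouts and between 6.78 and 7.74 in conventional knockouts, the opposite order. The labels of the 12-week knockouts are thus open to doubt and could not be checked here. All 12-week values below follow the labels: with the 12-week conventional and SPF labels exchanged, the decreases would belong to the conventional knockouts, the 12-week difference between knockouts would change sign, and the changes from 9 to 12 weeks would not be those given. Markers of pancreatic acinar cells stood out on replicate 1 of the 7-week wild types (mean 8.25) and replicate 3 of the 12-week SPF knockouts (6.36), against at most 5.86 on the other arrays. Liver markers stood out on replicates 1 and 2 of the 7-week wild types (means 7.33 and 6.52), against at most 5.50 elsewhere. Their part in the members' values was not tested.

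The promoters of 8 members are printed because they belong to genes with large decreases, to the paralog pair Acaa1a and Acaa1b, and to the members that rose. Each line gives the last 100 bases before the RefSeq start of transcription in build GRCm38.p6, read along the gene's own strand, with every CpG in capitals.
Hao2, chr3:98893231-98893330, minus strand: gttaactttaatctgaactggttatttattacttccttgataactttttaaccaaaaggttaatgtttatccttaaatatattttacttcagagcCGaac
Acaa1b, chr9:119157094-119157193, minus strand: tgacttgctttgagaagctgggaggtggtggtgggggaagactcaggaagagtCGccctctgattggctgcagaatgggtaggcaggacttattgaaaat
Acaa1a, chr9:119341194-119341293, plus strand: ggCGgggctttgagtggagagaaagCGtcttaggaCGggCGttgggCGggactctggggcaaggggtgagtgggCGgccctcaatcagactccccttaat
Ehhadh, chr16:21787835-21787934, minus strand: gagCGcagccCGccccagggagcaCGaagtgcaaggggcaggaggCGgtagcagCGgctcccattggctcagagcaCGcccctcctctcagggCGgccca
Fabp2, chr3:122894972-122895071, plus strand: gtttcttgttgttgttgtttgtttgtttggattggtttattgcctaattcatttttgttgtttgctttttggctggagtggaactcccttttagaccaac
Acadm, chr3:153944644-153944743, minus strand: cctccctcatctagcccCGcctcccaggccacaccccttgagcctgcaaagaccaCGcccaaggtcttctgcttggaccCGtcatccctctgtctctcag
Acsl5, chr19:55253269-55253368, plus strand: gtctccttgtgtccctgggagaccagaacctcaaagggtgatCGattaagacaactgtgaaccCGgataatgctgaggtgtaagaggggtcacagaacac
Acadl, chr1:66863310-66863409, minus strand: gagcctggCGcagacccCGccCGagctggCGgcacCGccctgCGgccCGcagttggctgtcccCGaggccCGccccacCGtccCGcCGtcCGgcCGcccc

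The printed stretches ran from no CpG in Fabp2 and 1 each in Hao2 and Acaa1b to 14 in Acadl. Of the 30 measured members, 26 had an entry in the promoter table, and Crat, Acaa2, Decr1 and Hsd17b4 did not. Over these 26 genes the median was 5.5 CpG per 100 bases, against 3 over all 32851 promoters in the table. A count of 3 or fewer was found in 11 of the 26 and in 55.9% of all promoters. Acaa1a and Acaa1b, which encode near-identical peroxisomal thiolases, matched at 56.6% of the aligned bases in the 250 bases before their starts. A search of the whole 300-base windows, both strands, looked for 9 letter patterns of elements bound by nuclear receptors. The DR1 element, searched as 2 copies of AGGNCA with any 1 base between them, was found in 1 of the 26 promoters, that of Fabp1, and in 0.381% of all promoters. In the printed match the capitals mark the repeat, which reads on the strand opposite to the gene.
Fabp1, chr6:71199788-71199848, plus strand: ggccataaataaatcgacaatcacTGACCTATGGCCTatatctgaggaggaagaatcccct

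The extended receptor site NAAGGTCA was in 1 of the 26 promoters, that of Acadm, and in 4.69% of all promoters. A pattern for the core of the HNF4 element was in 1, that of Pdk4, and in 0.536% of all. The estrogen-related receptor element TCAAGGTCA, which overlaps the extended receptor site, and the HNF4 elements CAAAGTCCA and TGACCTTTG were in none of the 26, and in 0.423%, 0.475% and 0.478% of all promoters. The 3 remaining patterns, stricter or reversed forms of the DR1 element, were also in none of the 26, and in 0.0396%, 0.0152% and 0.0639% of all. A missing match says only that these letters are not in the window.

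At 7 weeks no fatty acid oxidation gene was called in any comparison, with or without replicate 1 of the wild types. In conventional knockouts against wild types limma called 0 of 30 members and 0.506% of all genes. Before adjustment (p under 0.05) 1 member lay above and 4 below wild types, and 1994 of 18193 genes passed in either direction. In SPF knockouts against wild types it called 0 members and 0.055% of all genes, with 1 higher and 1 lower unadjusted, against 921 genes. Between conventional and SPF knockouts it called 0 members and 0.269% of all genes, with 1 lower unadjusted, against 968 genes. Eci2, an isomerase that moves double bonds, had the smallest unadjusted p of the members in conventional knockouts (-0.53 ± 0.14, adjusted p = 0.117).

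At 9 weeks the members split in conventional knockouts: a few rose, a few fell and most did not pass the test. Against wild types, Acsl5 and Acadl were higher, while Acadm, Hao2 and the coactivator gene Ppargc1a were lower. These 5 of 30 members compare with 24% of all genes called, so in this fit the members' share lay below that of all genes. That order depended on the probe sets and the fit. Averaging a gene's probe sets gave 9 of 30 members, against 22.9% of all genes. The probe set with the largest variance gave 8, against 25.2%. In a fit over all probe sets the other probe sets of Cpt1a, Hadh and Hadhb were all called lower. Their differences lay between -0.71 and -0.52, and 1 of Hadh was dim, with a mean of 3.62. For the remaining members not called here, no extra probe set was called. Fitting only the arrays of the 2 groups compared gave 9, against 26.2%. By direction, 2 members were higher against 14.2% of all genes, and 3 were lower against 9.86%. The median over members was -0.23, against 0.00 over all genes. The arrays of the groups did not overlap for 15 members, 12 of them lower in the knockouts, and for 42.5% of all genes. Without replicate 1 of the 9-week conventional knockouts the 2 higher calls were left and all 3 lower ones were lost, against 11.6% of all genes. Without replicate 3, 9 members were called, against 26.7% of all genes. In SPF knockouts at this age limma called 1 of 30 members, Acsl5, against 11.8% of all genes, and 2 members, against 16.6% of all genes, without replicate 2 of the 12-week SPF knockouts. Between conventional and SPF knockouts at 9 weeks it called 0 members and 0% of all genes. Unadjusted, 1 member was higher and 1 lower, against 1468 of 18193 genes in either direction. Without replicate 2 of the 12-week SPF knockouts it called 1 member, against 1.02% of all genes. With arrays weighted by their quality the 3 counts at 9 weeks were 13, 6 and 10 of 30 members, against 42.1%, 34.2% and 20.2% of all genes.

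At 12 weeks the calls lay in the knockouts labelled SPF. In SPF knockouts against wild types 21 members were lower and 2 were higher, while 7 did not pass the test. Of all genes 34.8% were called, 18.2% higher and 16.6% lower, so the members were called lower more often, and higher less often, than genes at large. No test was made of that contrast between members and other genes. The median over members was -0.57, against 0.02 over all genes. The arrays did not overlap for 19 members and for 33.5% of all genes. In conventional knockouts against wild types limma called 0 of 30 members and 0.451% of all genes, with a median over members of -0.06. Unadjusted, 2 members were lower, and 2854 of 18193 genes passed in either direction. A missed threshold does not show that these groups were alike, and the interval for Acaa1b ran from -2.64 to -0.30. Because each sample is a bulk of the whole colon wall, fewer cells of a type and less RNA per cell cannot be told apart.

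**Figure D1:**
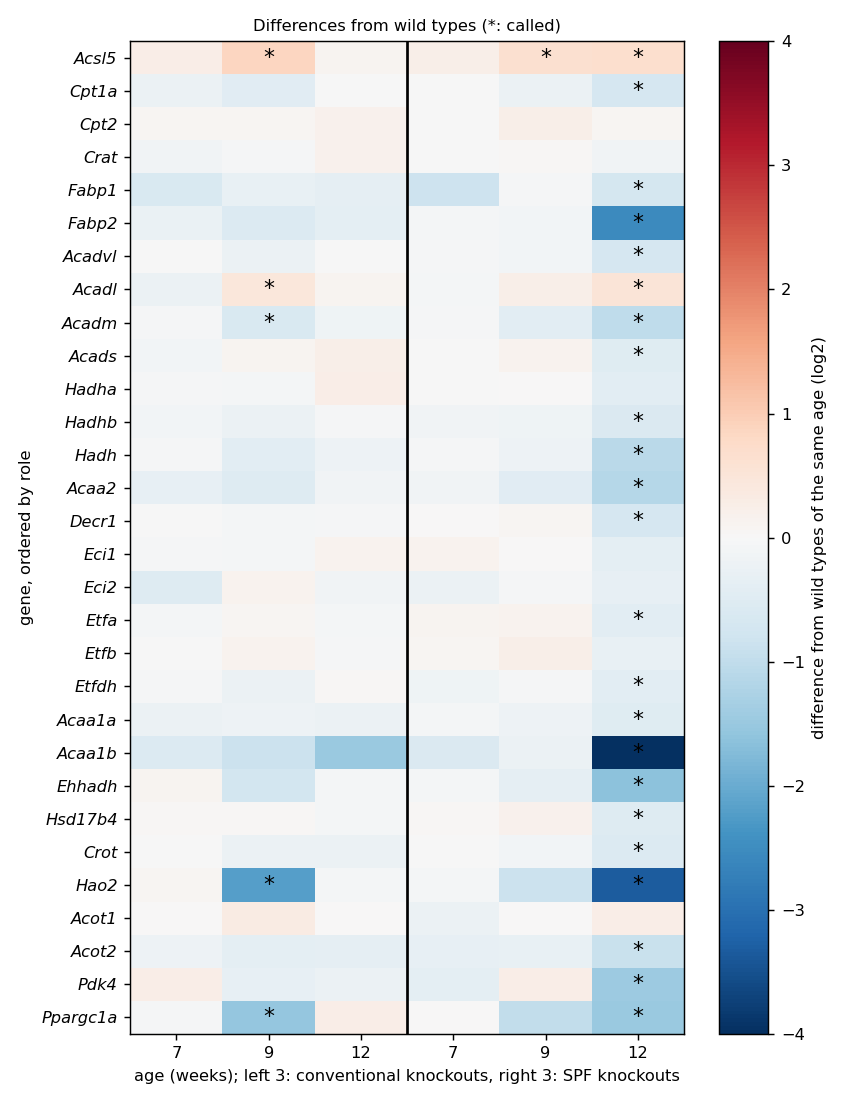
Log2 differences from wild types of the same age (colour scale) for 30 fatty acid oxidation genes (vertical axis) in conventional knockouts (left 3 columns) and SPF knockouts (right 3 columns) at 7, 9 and 12 weeks (horizontal axis). Stars mark called differences: 5 for conventional knockouts at 9 weeks, 1 for SPF knockouts at 9 weeks and 23 for SPF knockouts at 12 weeks.

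The direction of these 23 differences held under all alternatives run, but the calls did not. Without replicate 3 of the 12-week SPF knockouts 15 members were called, 2 higher and 13 lower, against 24.9% of all genes. The 8 calls lost were those of Cpt1a, Fabp1, Acads, Decr1, Etfa, Etfdh, Pdk4 and Ppargc1a. Etfdh, Pdk4 and Ppargc1a were also lost without replicate 1 of these knockouts or replicate 1 of the wild types, Fabp1 without replicates 1 or 2 of the wild types, and Acads without any of 19 of the 27 arrays. With only the 6 arrays of both groups, which leave the differences as they are, 5 members were called, against 7.26% of all genes. Dbp, a gene of the circadian clock, read between 3.83 and 4.59 in these SPF knockouts and between 5.93 and 9.94 in the wild types. With its level as a covariate 0 members and 0.363% of all genes were called by limma. Dbp did not overlap between these groups, so the covariate takes up part of the group difference and the fit loses precision. The lost calls therefore cannot tell a part of Dbp from lost precision. The differences of Acaa1b and Hao2, -4.00 and -3.34 without the covariate, were then -2.71 and -2.70. That of Acaa1a stayed at -0.50, yet its call was lost (adjusted p = 0.202 in limma). Others shrank further: Pdk4 from -1.46 to -0.11, Ppargc1a from -1.47 to -0.50, Crot from -0.56 to -0.12 and Etfa from -0.41 to -0.11. In 9-week conventional knockouts against wild types all 5 calls were kept with the covariate, against 3719 of 18193 genes. At 7 weeks Dbp differed by -5.08 ± 0.67 between conventional and SPF knockouts, where 0 members were called. The part of the clock in the members' differences was not tested.

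Activation and transport came first in the pathway, and here the members went different ways. Acsl5 encodes an acyl-CoA synthetase and lies on chromosome 19. In wild types it read 9.92, 9.93 and 9.82 at 9 weeks and 10.11, 10.16 and 10.11 at 12 weeks. In conventional knockouts it read 10.84, 10.75 and 10.63 at 9 weeks and 10.32, 10.18 and 10.20 at 12 weeks. In SPF knockouts it read 10.28, 10.48 and 10.82 at 9 weeks and 10.86, 10.58 and 10.96 at 12 weeks. Every knockout array lay above every wild-type array of the same age, with the conventional knockouts closest to wild type at 12 weeks. The difference from wild types was 0.85 ± 0.11 in conventional knockouts at 9 weeks (adjusted p = 3.43e-05). In SPF knockouts it was 0.64 ± 0.11 at 9 weeks (adjusted p = 0.00184) and 0.67 ± 0.11 at 12 weeks (adjusted p = 0.000176). In conventional knockouts at 12 weeks it was 0.10 ± 0.11 and was not called.

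Cpt1a, the gate of the carnitine shuttle on the outer mitochondrial membrane, was lower in 12-week SPF knockouts (-0.68 ± 0.20, adjusted p = 0.0101). Its other 2 probe sets gave -0.53, which was called, and -0.37, which was not. Cpt2, its partner on the inner membrane, differed by 0.09 ± 0.11 there and Crat, which makes acetylcarnitine, by -0.14 ± 0.13, and neither was called. The intervals of these differences ran from -0.13 to 0.31 for Cpt2 and from -0.40 to 0.12 for Crat.

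The fatty acid binding proteins ferry lipid inside the cell. Fabp2, the intestinal form, on chromosome 3, read 12.82, 12.57 and 12.15 in 12-week wild types and 11.90, 12.18 and 12.31 in conventional knockouts of that age. In 12-week SPF knockouts it read 9.62, 11.73 and 8.56. Replicate 2 of the SPF knockouts lay close to the other groups and replicates 1 and 3 far below, yet all 3 lay under every wild-type array. The difference from wild types was -2.54 ± 0.46 (adjusted p = 0.000321), or 5.83-fold on the linear scale, and it was -1.84 without replicate 3 and -3.42 without replicate 2. At 9 weeks Fabp2 read 11.26, 11.18 and 11.20 in conventional knockouts and 11.52, 11.59 and 12.19 in wild types, a difference of -0.55 ± 0.46 that was not called. Fabp1, the liver form, lay near the bottom of the scale, with group means from 3.16 to 4.12. Its call in 12-week SPF knockouts (-0.70 ± 0.22, adjusted p = 0.0169) rests on that dim signal. A second probe set, with a mean of 3.51, gave -1.15 and was called.

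Of 8 measured members of mitochondrial chain shortening, 6 were lower and 1 was higher in 12-week SPF knockouts. The acyl-CoA dehydrogenases, which open each round for chains of different length, did not move together. Acadm, the medium-chain enzyme, on chromosome 3, read 10.77, 10.71 and 10.78 in 12-week wild types. It read 9.64, 10.22 and 9.36 in SPF knockouts and 10.45, 10.70 and 10.57 in conventional knockouts of the same age. All 3 SPF arrays lay below both other groups. The difference from wild types was -1.01 ± 0.17 (adjusted p = 0.00021). At 9 weeks Acadm read 9.79, 10.09 and 10.36 in conventional knockouts and 10.72, 10.66 and 10.73 in wild types. Again the groups did not overlap, and the difference was -0.62 ± 0.17 (adjusted p = 0.0126; 0.101 without replicate 1 of the knockouts).

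Acadl, the long-chain enzyme on chromosome 1, went the other way. At 12 weeks it read 10.45, 10.36 and 10.49 in wild types, 10.57, 10.57 and 10.51 in conventional knockouts and 11.08, 10.76 and 11.00 in SPF knockouts. At 9 weeks it read 10.66, 10.54 and 10.47 in wild types and 10.90, 10.92 and 11.18 in conventional knockouts. In both cases the knockout arrays lay above all wild-type arrays. The difference was 0.52 ± 0.10 in 12-week SPF knockouts (adjusted p = 0.000573) and 0.45 ± 0.10 in 9-week conventional knockouts (adjusted p = 0.00349). A second Acadl probe set, with a mean of only 3.26, gave 0.20 and 0.22, and neither was called.

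Acadvl, the very-long-chain enzyme on chromosome 11, read 10.34, 10.13 and 10.22 in 12-week wild types and 9.48, 9.91 and 9.26 in SPF knockouts. No SPF array reached the wild-type range, and the difference was -0.68 ± 0.15 (adjusted p = 0.0012). Acads, the short-chain enzyme, which takes the activated form of butyrate, was lower by a narrower margin (-0.47 ± 0.18, adjusted p = 0.0476), with arrays that overlapped, and it was -0.18 without replicate 3 of the SPF knockouts.

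Genes of the later steps of the mitochondrial round were lower too. Hadh, a hydroxyacyl-CoA dehydrogenase on chromosome 3, read 12.92, 13.03 and 12.82 in 12-week wild types, 12.57, 12.76 and 12.80 in conventional knockouts and 11.72, 12.53 and 11.28 in SPF knockouts. All SPF arrays lay below all others of that age, and the difference from wild types was -1.08 ± 0.19 (adjusted p = 0.000302). Acaa2, a mitochondrial thiolase that releases acetyl-CoA, read 10.16, 9.73 and 9.80 in wild types, 9.67, 9.75 and 9.88 in conventional knockouts and 8.80, 9.33 and 8.14 in SPF knockouts. Its SPF arrays lay below all others as well, with a difference of -1.14 ± 0.25 (adjusted p = 0.00134). Hadhb, 1 of the subunits of the trifunctional protein, was lower (-0.57 ± 0.13, adjusted p = 0.00182), whereas its partner Hadha differed by -0.41 ± 0.17 and was not called (adjusted p = 0.0631). The 3 probe sets of Hadh, of Acaa2 and of Hadhb were all below 0 in this comparison.

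Among the enzymes that handle double bonds, Decr1, a dienoyl-CoA reductase, was lower in 12-week SPF knockouts (-0.68 ± 0.19), and Eci1 (-0.40 ± 0.16) and Eci2 (-0.34 ± 0.14) were not called. Of the electron transfer genes, Etfa (-0.41 ± 0.11) and Etfdh (-0.43 ± 0.14) were lower, and Etfb (-0.30 ± 0.12) was not called. The arrays of Decr1, Etfa and Etfdh overlapped between the groups.

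All 6 peroxisomal members were called lower in 12-week SPF knockouts, among them Acaa1b and Hao2, the members with the largest decreases. Their median was -1.10, against -1.62 for the 2 fatty acid binding members and -1.47 for the 2 regulators. Acaa1b, a thiolase on chromosome 9, read 8.02, 8.61 and 7.29 in 12-week wild types and 6.21, 6.67 and 6.64 in conventional knockouts. In 12-week SPF knockouts it read 3.60, 4.76 and 3.57. The 3 groups did not overlap, with SPF knockouts lowest and conventional knockouts between. The SPF knockouts differed from wild types by -4.00 ± 0.57 (adjusted p = 4.79e-05). Their 3 values lay below every array median, near the bottom of the scale, and no detection calls were used here, so the size of this difference is uncertain and no fold is given. Conventional knockouts differed from wild types by -1.47 ± 0.57, which was not called (adjusted p = 0.211). At 7 weeks Acaa1b spread from 5.77 to 7.78 over the 9 arrays, wider than any other member at that age. The bearing of the uneven liver markers in the wild types of that age was not tested.

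Hao2, an oxidase of long-chain hydroxy acids on chromosome 3, had the widest range of the members over the 27 arrays, from 6.62 to 12.08. It read 11.82, 11.57 and 11.99 in 12-week wild types, 11.64, 11.73 and 11.77 in conventional knockouts and 7.55, 11.18 and 6.62 in SPF knockouts. Replicate 2 of the SPF knockouts lay near the other groups but still below them, and replicates 1 and 3 were far lower. The difference from wild types was -3.34 ± 0.65 (adjusted p = 0.000553), and it was -2.43 without replicate 3 and -4.71 without replicate 2. At 9 weeks Hao2 read 11.97, 11.86 and 11.85 in wild types, 9.32, 9.73 and 10.00 in conventional knockouts and 11.81, 11.39 and 9.94 in SPF knockouts. All conventional knockouts lay below the wild types, and replicate 3 of the SPF knockouts lay among the conventional knockouts. The conventional knockouts differed from wild types by -2.21 ± 0.65 (adjusted p = 0.0169; 0.0774 without their replicate 1). At 7 weeks all 9 arrays lay between 11.56 and 12.08.

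Ehhadh, the bifunctional enzyme of the peroxisomal round, on chromosome 16, read 8.63, 8.26 and 8.33 in 12-week wild types, 8.28, 8.44 and 8.29 in conventional knockouts and 6.62, 7.72 and 5.99 in SPF knockouts. All SPF arrays lay below all others, and the difference from wild types was -1.63 ± 0.31 (adjusted p = 0.000437). At 9 weeks it read 7.23, 7.79 and 7.49 in conventional knockouts and 8.22, 8.20 and 8.29 in wild types. These groups did not overlap either, but the difference of -0.73 ± 0.31 was not called (adjusted p = 0.0888). That SE rests on the spread in all 9 groups, the uneven 12-week SPF knockouts among them.

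Acaa1a, the paralog of Acaa1b on the same chromosome, read 7.78, 8.01 and 8.07 in 12-week wild types and 7.41, 7.52 and 7.42 in SPF knockouts, a small but tight gap of -0.50 ± 0.10 (adjusted p = 0.000594). Its probe set is of a type that can bind related transcripts, so the share of Acaa1b in this signal is uncertain. Crot, which moves shortened chains out of peroxisomes as carnitine esters and lies on chromosome 5, read 8.53, 8.81 and 8.44 in wild types and 7.98, 8.25 and 7.88 in SPF knockouts. Its groups did not overlap, and the difference was -0.56 ± 0.12 (adjusted p = 0.00132), while a dimmer second probe set gave 0.12 and was not called. Hsd17b4, the other bifunctional enzyme, was also lower (-0.53 ± 0.13, adjusted p = 0.00343).

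**Figure D2:**
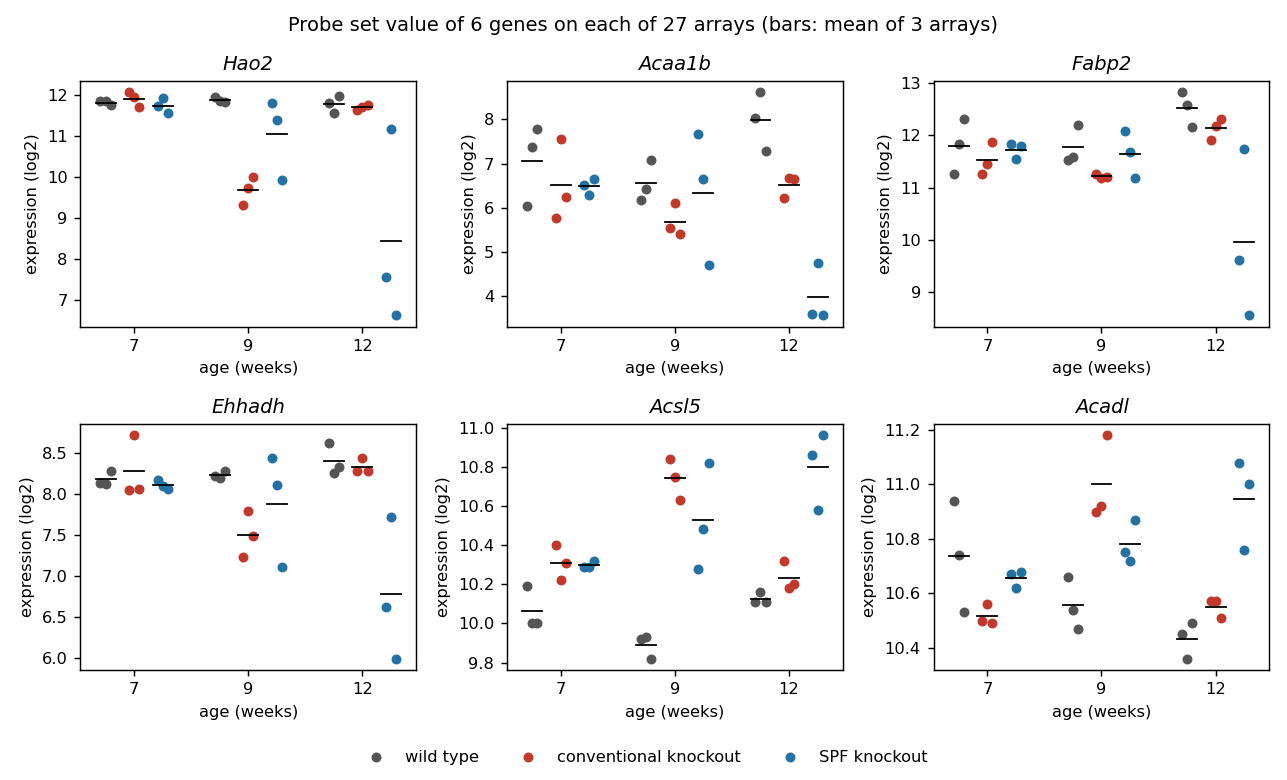
Log2 expression (vertical axis, a separate scale in each panel) of 6 genes by age in weeks (horizontal axis), with 1 point per array and bars at the mean of 3 arrays for wild types (grey), conventional knockouts (red) and SPF knockouts (blue). Hao2, Acaa1b, Fabp2 and Ehhadh were lowest in 12-week SPF knockouts, where Hao2 ran from 6.62 to 11.18, whereas Acsl5 and Acadl were highest in 9-week conventional or 12-week SPF knockouts.

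The thioesterases, which free fatty acids from coenzyme A, and the regulators completed the set. Acot2, the mitochondrial thioesterase, was lower in 12-week SPF knockouts (-0.90 ± 0.23, adjusted p = 0.00365), though a second probe set with a mean of 3.41 gave -0.02. Its near copy Acot1 differed by 0.25 ± 0.26 and was not called. The array may not separate these paralogs fully. Pdk4, a kinase that blocks glucose carbon from entering the citric acid cycle, was lower (-1.46 ± 0.48, adjusted p = 0.0203). Ppargc1a was lower in 12-week SPF knockouts (-1.47 ± 0.45, adjusted p = 0.0132) and in 9-week conventional knockouts (-1.54 ± 0.45, adjusted p = 0.0155). The 9-week call was lost without replicate 1 of the knockouts (adjusted p = 0.114) or replicates 1 or 2 of the wild types. Each of the other 4 probe sets of Ppargc1a was lower in both comparisons, by 1.48 to 1.95 on the log2 scale.

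**Figure D3:**
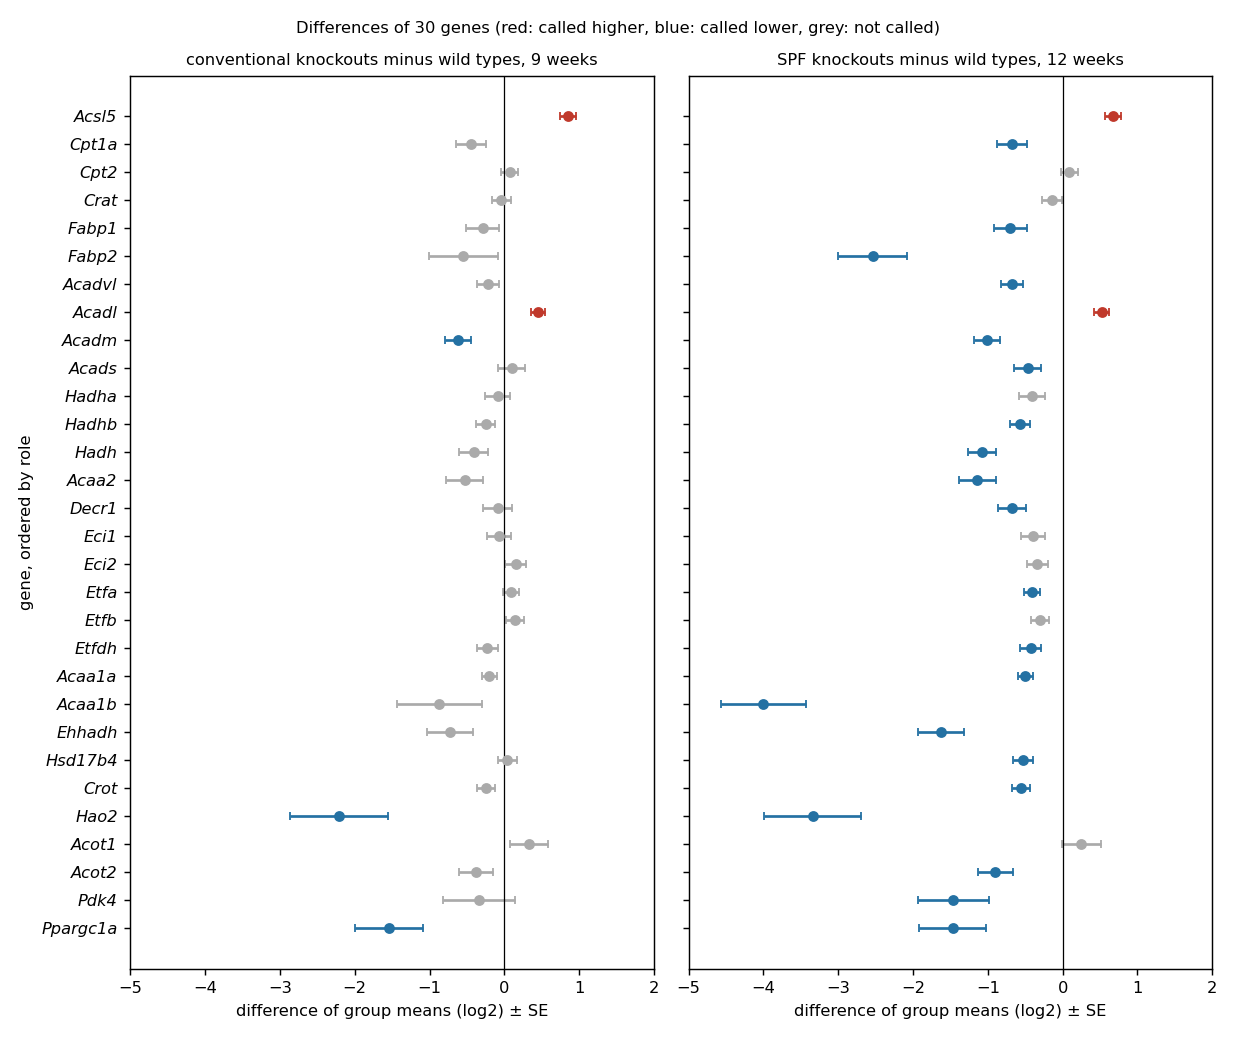
Log2 difference of group means ± SE (horizontal axis) for 30 genes ordered by role (vertical axis), with conventional knockouts minus wild types at 9 weeks on the left and SPF knockouts minus wild types at 12 weeks on the right (n = 3 arrays per group). On the right 21 genes are called lower (blue) and 2 higher (red), and on the left 3 are called lower and 2 higher.

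Conventional and SPF knockouts share the genotype and differ in housing. At 12 weeks fatty acid oxidation genes were mostly higher in the conventional knockouts: 18 of 30 were higher and 2, Acsl5 and Acadl, were lower, and 24.6% of all genes were called. All genes were called higher at 11.1% and lower at 13.6%. The median over members was 0.54, against 0.01 over all genes, and arrays did not overlap for 19 members and for 31.1% of all genes. Mitochondrial oxidation was higher for 7 of 8 members, with Hadha (0.66 ± 0.17, adjusted p = 0.00808) and Acads (0.70 ± 0.18) among them. Hao2 differed by 3.26 ± 0.65 (adjusted p = 0.00257), Acaa1b by 2.53 ± 0.57, Fabp2 by 2.16 ± 0.46, Ppargc1a by 1.74 ± 0.45 and Ehhadh by 1.56 ± 0.31. This comparison uses the same SPF arrays as that with wild types, so the 2 sets of values are not independent. The count was 8, against 7.46% of all genes, without replicate 3 of the 12-week SPF knockouts, and 11, against 10.5%, with Dbp as a covariate. When only the 6 arrays of both groups were fitted limma called 0 members and 0.11% of all genes. The doubt about the labels of the 12-week knockouts applies to this comparison and to the changes from 9 to 12 weeks.

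The difference between conventional and SPF knockouts changed from 9 to 12 weeks for many members, by a test of the change itself. It rose for 16 members and fell for 2, Acsl5 and Acadl, against 18.6% of all genes called in either direction. Hao2 had the largest change (4.62 ± 0.92, adjusted p = 0.00307): the difference was -1.36 ± 0.65 at 9 weeks, not called, and 3.26 ± 0.65 at 12 weeks. Acaa1b changed by 3.19 ± 0.80, Fabp2 by 2.59 ± 0.65 and Ppargc1a by 2.27 ± 0.63. The count fell to between 8 and 11, against 8.59% to 14.4% of all genes, without any 1 of 7 arrays: replicate 1 of the 9-week conventional knockouts, replicates 1 or 2 of the 9-week SPF knockouts, replicates 2 or 3 of the 12-week conventional knockouts, and replicates 1 or 3 of the 12-week SPF knockouts.

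Within the conventional knockouts the share of members called between ages was close to that of all genes. In conventional knockouts from 7 to 9 weeks Acsl5 (0.43 ± 0.11) and Acadl (0.48 ± 0.10) rose and Hao2 fell (-2.23 ± 0.65, adjusted p = 0.032), 3 of 30 members against 10.4% of all genes. From 9 to 12 weeks Acsl5 (-0.51 ± 0.11) and Acadl (-0.45 ± 0.10) fell again, 2 members against 7.34% of all genes. Hao2 differed by 2.03 ± 0.65 over that step and missed the threshold (adjusted p = 0.0581). Shares of all genes moved with these counts. The first count was 1, against 2.36% to 4.84% of all genes, without replicate 2 of the 7-week or replicates 1 or 2 of the 9-week conventional knockouts. It was 5, against 12.3% to 12.8%, without replicate 3 of the 9-week conventional, 9-week SPF or 12-week SPF knockouts, and 7, against 16.3%, without replicate 2 of the last. The second was 1, against 0.533% to 2.12%, without replicate 1 of the 9-week or replicate 2 of the 12-week conventional knockouts. It was 4 (9.79% to 11.2%) without replicate 3 of the 9-week conventional or 12-week SPF knockouts, 6 (9.7%) without replicate 3 of the 9-week SPF knockouts and 8 (14.5%) without replicate 2 of the 12-week SPF knockouts. In wild types limma called 0 members from 7 to 12 weeks and 0.121% of all genes. Unadjusted, 1 member was higher and 2 were lower, against 2631 of 18193 genes in either direction.

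In SPF knockouts from 9 to 12 weeks limma called 0 of 30 members and 0% of all genes. Without adjustment 23 members were lower and 1 was higher (p under 0.05), and 3431 of 18193 genes passed in either direction. Hao2 differed by -2.60 ± 0.65 (adjusted p = 0.0922) and Acaa1b by -2.37 ± 0.57 (adjusted p = 0.0909). The count was 18, against 7.88% of all genes, without replicate 3 of the 9-week SPF knockouts and 23, against 19.7%, without replicate 2 of the 12-week SPF knockouts, so these missed thresholds do not show that the members stayed level. The difference of SPF knockouts from wild types likewise changed for 0 members and 0% of all genes between these ages. Unadjusted, 16 members were lower, and 2416 genes passed in either direction. Without replicate 2 of the 12-week SPF knockouts 16 were called, against 10% of all genes, and without replicate 3 of the 9-week SPF knockouts 1, against 0.066%. The difference of conventional knockouts from wild types changed from 7 to 9 weeks for 2 members, Acsl5 (0.60 ± 0.16) and Acadl (0.67 ± 0.14), against 2.01% of all genes. From 9 to 12 weeks it changed for 1 member, Acsl5 (-0.75 ± 0.16), against 1.82% of all genes. The first of these counts was 0 without replicates 1 or 2 of the 7-week conventional knockouts or replicates 2 or 3 of the 9-week wild types, 1 without any of 16 other arrays, and 4, against 7.44% of all genes, without replicate 2 of the 12-week SPF knockouts. The second was 3, against 8.89%, without that array and 2, against 7.43%, without replicate 3 of the 9-week conventional knockouts. It was 0 without either other replicate of that group, any 9-week wild type, any 12-week conventional knockout or replicate 2 of the 12-week wild types.

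The SPF knockouts were uneven within their groups. In the 12-week group replicate 3 was the lowest of the 3 arrays for 26 of 30 members and replicate 2 the highest for 24. In the 9-week group replicate 3 was the lowest for 25 and replicate 1 the highest for 25. The median within-group SD of the members was 0.34 at 12 weeks, against 0.18 over all genes, and 0.27 at 9 weeks, against 0.15. In 12-week wild types the members' median SD was 0.18, the same as over all genes. Markers of other cells were uneven in the same arrays. In the 12-week SPF knockouts the mean of 8 colonocyte markers was 9.21, 11.18 and 8.72, and the mean of 9 neutrophil and macrophage markers was 7.81, 6.15 and 8.48. Thus replicate 2, with the highest member values, also had the highest colonocyte and the lowest neutrophil and macrophage means. The part of cell composition in the differences was not tested.

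Markers of cell types moved between the groups beside the oxidation genes. Of all genes 18.2% were called higher and 16.6% lower in 12-week SPF knockouts against wild types, and 14.2% and 9.86% in 9-week conventional knockouts. In 12-week SPF knockouts against wild types 7 of 8 markers of mature colonocytes were lower, with a list median of -1.93. Among them were the water channel gene Aqp8 (-2.81 ± 0.70) and the chloride exchanger gene Slc26a3 (-1.49 ± 0.29). Pan-epithelial markers did not follow: 1 of 8, Cldn7, was higher and none lower, with a median of 0.07. Smooth muscle markers were lower for 8 of 8 (median -1.07), while 8 of 9 neutrophil and macrophage markers (median 1.57) and 5 of 5 T cell markers (median 0.57) were higher. Of 5 measured adipocyte markers and 4 of the distal colon none was called, and of 13 clock genes 1 was higher and 5 were lower. The mean of 8 small intestine and proximal gut markers was 5.73, 5.99 and 5.04 in 12-week SPF knockouts, against 5.58 to 5.79 in wild types. Of these 8 markers, 5 lay below the array median on every array. On lists of other tissues, 2 of 7 pancreatic acinar markers, Clps (-2.65 ± 0.47) and Cela1 (-1.81 ± 0.48), 1 of 5 liver markers, Ttr (-2.98 ± 0.68), and 3 of 8 skeletal muscle markers, Ckm, Acta1 and Myl1, were lower, and the muscle gene Myh4 was higher. Their part in the members' differences was not tested. In 9-week conventional knockouts 7 of 9 neutrophil and macrophage markers were higher, 6 of 8 smooth muscle markers were lower, and 3 of 8 colonocyte markers were lower and 1 was higher. There 1 of 4 distal colon markers, Hoxb13, was lower (-2.36 ± 0.55), and its bearing on the members was not tested.

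**Figure D4:**
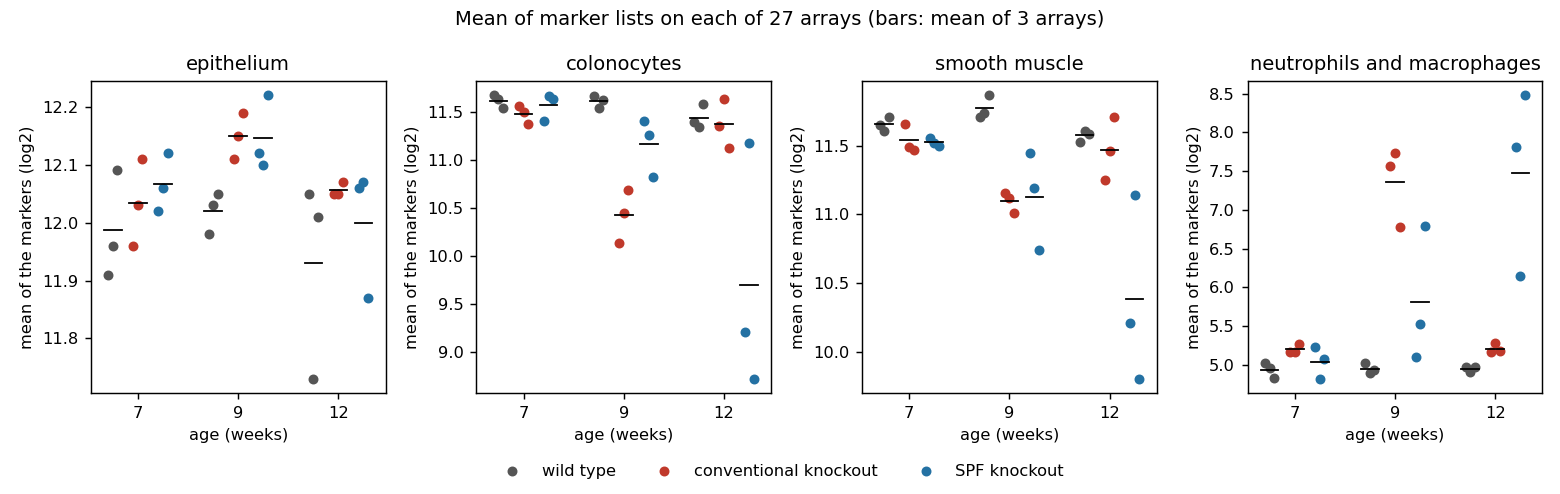
Mean log2 expression (vertical axis, a separate scale in each panel) of markers of epithelium, colonocytes, smooth muscle, and neutrophils and macrophages by age in weeks (horizontal axis), with 1 point per array and bars at the mean of 3 arrays for wild types (grey), conventional knockouts (red) and SPF knockouts (blue). In 12-week SPF knockouts the colonocyte mean ran from 8.72 to 11.18 and the neutrophil and macrophage mean from 6.15 to 8.48.

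Other genes of fatty acid oxidation, outside the 30, were read from a related list in the same fit. Of 26 measured, 13 were lower in 12-week SPF knockouts against wild types and none higher, with a median of -0.21. They included Mcee, an epimerase of odd-chain breakdown (-0.87 ± 0.19), the peroxisomal sterol carrier gene Scp2 (-0.66 ± 0.14) and Hsd17b10 (-0.64 ± 0.14). In 9-week conventional knockouts 1 of the 26, the thioesterase gene Acot4, was higher (0.78 ± 0.20) and none was lower. Of all genes 14.2% were called higher and 9.86% lower there. In 12-week SPF knockouts 18.2% of all genes were called higher and 16.6% lower. These shares also apply to the lists below. Of 16 genes of the carnitine shuttle and fatty acid uptake, 6 were lower in 12-week SPF knockouts. The activating enzyme Acsl3 was among them (-1.67 ± 0.24, adjusted p = 4.83e-05), opposite to Acsl5, as was the carnitine carrier Slc25a20 (-0.76 ± 0.17).

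Of 6 measured genes of ketone body handling, 3 were lower in 12-week SPF knockouts: Acat1 (-0.47 ± 0.12), Bdh2 (-0.40 ± 0.13) and Oxct1, which starts ketone body use (-0.40 ± 0.13). Of 7 genes for the transport, activation and sensing of butyrate and other short acids, 5 were lower and 1 higher. The butyrate transporter genes Slc16a1 (-0.55 ± 0.13) and Slc5a8 (-0.60 ± 0.20) and the activating enzymes Acss1, Acss2 and Acsm3 (-1.97 ± 0.48) fell, and the receptor gene Hcar2 rose (1.11 ± 0.30). In 9-week conventional knockouts 4 of these 7 genes were lower and Hcar2 was higher (1.01 ± 0.30).

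Regulators outside the 30 went both ways in 12-week SPF knockouts, with 5 of 19 higher and 7 lower. Ppara, which encodes PPAR alpha, was lower (-2.45 ± 0.50, adjusted p = 0.000748), and Ppard, which encodes a related receptor, was higher (0.99 ± 0.21, adjusted p = 0.00103). Prkaa2, a catalytic subunit of the energy sensor AMPK, was lower (-0.74 ± 0.14), and Esrra, which encodes an estrogen-related receptor, was higher (0.33 ± 0.08). Of 11 other known targets of PPAR receptors 1 was higher, Fads1 (0.81 ± 0.24), and 1 was lower, Vnn1 (-1.89 ± 0.53). Both counts lay below the shares of all genes, 18.2% higher and 16.6% lower. Of 11 genes of fatty acid synthesis, 3 were higher, among them Fasn (0.49 ± 0.15), and Acly was lower (-0.46 ± 0.15). In 9-week conventional knockouts 6 of these 11 were higher and Acly was lower (-0.56 ± 0.15).

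Across the 26 members with a promoter entry, the difference of 12-week SPF knockouts from wild types went with the number of CpG in the last 100 bases (Spearman 0.50, Pearson 0.48). With GC content it gave a Spearman value of 0.36. Both features were chosen after the members' values were seen, and members share arrays and pathway, so these are descriptions. Fabp2, Acaa1b and Hao2, with at most 1 CpG in the printed stretches, had the largest decreases, and Acadl, with 14, rose. Other members did not follow that order: Ehhadh had 7 CpG and a difference of -1.63, whereas Acot2 had 0 CpG and a smaller difference of -0.90. Acsl5 with 2 (0.67), Acot1 with 3 (0.25) and Etfdh with 1 (-0.43) had few CpG without a large decrease. Fabp1 with 1 (-0.70) lay near the bottom of the scale, where a large decrease could not be seen.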

How the data were processed

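RNA from mouse colon was hybridised to 27 Affymetrix arrays, 1 per sample. Although a rat array is named in the series' design text, the identifiers match a mouse array's annotation. The authors deposited log2 expression for each probe set, normalised across arrays with affyPLM, per the same text. The version, background step and summary method, not given in the sources used here, are unknown. Arrays have no count depth, and their number limits precision.

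Of 45101 probe sets, 64 controls, 932 with several symbols and 9160 with none were left out. The other 34945 gave 18193 genes, each read by its probe set of highest mean. limma 3.58.1 in R 4.3.3 (lmFit, eBayes, two-sided) fitted 9 group means to 27 arrays with 18 residual degrees of freedom, for 17 comparisons. The members, lists, naming rule and tests were chosen with earlier results of these data known. Members received values per array where they were called in a comparison of kinds of mice with arrays that did not overlap, at most 12 by smallest adjusted p. From related lists, up to 3 called genes per direction and comparison could be named. Hoxb13, Aqp8, Slc26a3, Cldn7, Slc16a1, Slc5a8, Clps, Cela1, Ttr, Ckm, Acta1, Myl1 and Myh4 were picked after their values were seen.

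In data simulated for 12-week SPF knockouts against wild types (18193 genes), the fit called 84% of genes changed by 1 log2 unit. It called 97% of those changed by 2, and 17 unchanged genes. The simulated noise was normal with 1 pooled SD per gene for all groups, and only a small part of the genes was changed. In the data the members' median SD was 0.34 in 12-week SPF knockouts and 0.18 in wild types. These shares thus check the fit and do not measure its recall or false calls in that comparison. Promoters are from RefSeq (GRCm38.p6), matched by symbol. The same 9 patterns were searched in all promoters, and the patterns, CpG and GC were picked after the members' values were known. Alternatives are given in the closing section. Figures used Python 3.11.15, pandas 2.3.3 and matplotlib 3.10.9.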

Additional observations from a re-analysis of the deposited data

Results flagged for a closer look

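Members whose difference between kinds of mice changed from 1 age to the next, by the interaction term in limma's model (adjusted p under 0.05), are given here with their values on the log2 scale. For conventional knockouts against wild types from 7 to 9 weeks the difference rose for Acsl5 (0.60) and Acadl (0.67), and from 9 to 12 weeks it fell for Acsl5 (-0.75). For conventional against SPF knockouts from 9 to 12 weeks it fell for Acsl5 (-0.78) and Acadl (-0.61).

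Over the same step it rose for 16 members. In mitochondrial oxidation these were Acadvl (0.76), Acadm (1.02), Acads (0.73), Hadha (0.77), Hadhb (0.63), Hadh (1.07) and Acaa2 (1.09), with Decr1 (0.79) and Etfdh (0.68) beside them. In peroxisomes they were Acaa1b (3.19), Ehhadh (1.95), Hsd17b4 (0.60) and Hao2 (4.62). The others were Cpt1a (0.87), Fabp2 (2.59) and Ppargc1a (2.27). No group held 4 or more arrays, so single arrays were not tested as outliers.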

How the results depend on the processing

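In the 49 cases of a member called between kinds of mice at 1 age, its difference kept its sign under each alternative run. With the replicate number within age as a replicate block, 22 members were called in 12-week SPF knockouts against wild types. For conventional against SPF knockouts of that age 21 were called, and 14 for the change of the difference between knockouts. The change of the conventional difference from wild types gave 1 (1.1% of all genes) from 7 to 9 weeks. From 9 to 12 weeks it gave 0 (0% of all genes). Same-numbered arrays did not deviate together (27 correlations from -0.44 to 0.26, 4 over 0.1 and 5 under -0.1), so the numbers were not taken to pair the samples. Centring each array on its median left 1 member for the 7 to 9 week change, against 1.99% of all genes. Averaging all probe sets of a gene gave, against wild types, 1 member for 7-week and 9 for 9-week conventional knockouts and 2 for 9-week SPF knockouts. The shares of all genes were 0.401%, 22.9% and 10.9%. The probe set with the largest variance gave 2, 8 and 2 for the same comparisons, and 1 for 7-week SPF knockouts. These went with 0.528%, 25.2%, 13% and 0.22% of all genes. Array weights gave 1, 13 and 6, and 10 for conventional against SPF knockouts at 9 weeks. The shares were 4.19%, 42.1%, 34.2% and 20.2%. Only the arrays of the groups compared gave 9 for conventional knockouts at 9 weeks, against 26.2% of all genes. For 12 weeks they gave 5 (SPF knockouts against wild types, 7.26% of all genes) and 0 (conventional against SPF knockouts, 0.11%). A minimum difference of 1 gave 2 and 0 for conventional and SPF knockouts against wild types at 9 weeks (4.77% and 1.67% of all genes). At 12 weeks it gave 9 for SPF knockouts against wild types (7.95%) and 6 for conventional against SPF knockouts (5.16%). Dbp as a covariate gave 0 and 11 for these 12-week comparisons (0.363% and 10.5%). Dbp itself did not overlap between the groups compared there, so lost precision alone can lower these counts. The cause was not tested, beyond fewer arrays or a stricter rule by construction.

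Leaving out each array in turn, the counts against wild types ranged from 2 to 9 (conventional knockouts, 9 weeks), 1 to 2 (SPF, 9 weeks) and 15 to 26 (SPF, 12 weeks). Between conventional and SPF knockouts they ranged from 0 to 1 at 9 weeks and 8 to 23 at 12 weeks. At 12 weeks the counts of 15 and 26 went with 24.9% and 40.3% of all genes. Those of 8 and 23 went with 7.46% and 34.3%. With age the counts ranged from 1 to 7 and 1 to 8 (conventional knockouts, 9 against 7 and 12 against 9 weeks) and 0 to 23 (SPF). For the changes of differences they ranged from 0 to 4 and 0 to 3 (conventional against wild types) and 0 to 16 (SPF against wild types). For conventional against SPF they ranged from 8 to 23, the latter against 30.2% of all genes. The other counts stayed at 0. Leaving out replicate 3 of the 9-week and replicate 2 of the 12-week SPF knockouts together was also tried after the data were seen. It picks arrays by the values under study, so it is not used.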
